A study of Mus musculus with 35 samples.

Results

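Interferon-stimulated genes are transcribed when a cell senses interferon, and 36 of them were listed for mouse lung. Of these, 32 could be measured on the arrays, among 19938 genes in all. Each gene was read from the probe set that names it alone and has the highest mean over the 35 arrays. Isg15, Gbp2 and Igtp sat only on probe sets shared with another gene and Ifi44 was named by none, so these 4 were not analysed here. The 32 genes were 12 effectors induced by type I interferon, 5 members of the oligoadenylate synthetase (OAS) family, 5 signalling factors, 3 nucleic acid sensors, 4 GTPases and 3 ligands of the chemokine receptor CXCR3.

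The lungs came from adult male C57BL/6J mice of 20 to 25 g, 1 array per animal, in 5 groups, and were lavaged before removal. High stretch hypercapnia (10 mice) was 3 h of ventilation in breaths of 35 to 40 mL/kg, 30 to 35 per min, that peaked at 27 cmH2O with no end-expiratory pressure (PEEP 0), with FIO2 0.75 and FiCO2 0.12 in nitrogen; high stretch normocapnia (10 mice) differed in having FiCO2 0. Low stretch hypercapnia (5 mice) was 3 h at 10 mL/kg, PEEP 2 cmH2O and 135 breaths per min with FiCO2 0.12 in room air; low stretch normocapnia (5 mice) breathed room air. The reference was the group of non-ventilated mice (5 mice). High and low stretch therefore differ in tidal volume, PEEP, rate and oxygen together. All values below are the log2 signal of the deposited table, in which a difference of 1 is a doubling.

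Cells make type I interferons after sensing nucleic acids; the interferon receptor then activates Jak kinases and the factor ISGF3, which holds Stat2 and Irf9 and binds a promoter element called ISRE. Interferon gamma acts instead through a shorter element called GAS, which lies in the Irf1 promoter. In the lung this programme is best known from respiratory virus infection, and type I interferon genes are also induced by sensed self DNA and RNA.

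The promoters of these genes were searched for both elements. RefSeq start sites on GRCm38.p6 gave windows of 300 bases (250 before and 50 after the start) for 21 of the 32 genes. An ISRE letter pattern (GAAANNGAAA or its reverse complement TTTCNNTTTC, both strands) lay in a window of 12 of these 21 genes, against 3.99% of 27025 genes with a window. A GAS pattern (TTCNNNGAA, the same on both strands) lay in 4 of the 21, against 9.55% of all genes, and 7 of the 21 had neither; a match is a string of letters, not a shown binding site. The 250 bases before the start are printed for 5 genes picked from those with a match, with the match in capitals. The choice does not follow the tests below: Rsad2 and Ifit1 passed in no comparison over all arrays. Irf9, which passed, had neither pattern in its 2 windows. The printed bases lie at chr5:120777660-120777909 (Oas3, minus strand), chr5:92348890-92349139 (Cxcl10, minus strand), chr12:26456453-26456702 (Rsad2, minus strand), chr19:34640639-34640888 (Ifit1, plus strand) and chr11:53769764-53770013 (Irf1, plus strand).
Oas3: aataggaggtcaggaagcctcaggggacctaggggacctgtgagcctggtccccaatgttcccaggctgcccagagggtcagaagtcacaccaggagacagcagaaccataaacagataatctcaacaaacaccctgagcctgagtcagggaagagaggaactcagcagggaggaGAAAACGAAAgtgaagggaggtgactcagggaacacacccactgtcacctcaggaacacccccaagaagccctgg
Cxcl10: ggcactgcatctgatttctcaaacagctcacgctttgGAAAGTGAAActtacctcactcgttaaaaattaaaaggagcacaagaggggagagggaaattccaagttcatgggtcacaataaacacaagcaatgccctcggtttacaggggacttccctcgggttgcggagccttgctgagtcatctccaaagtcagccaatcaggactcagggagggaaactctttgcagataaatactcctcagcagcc
Rsad2: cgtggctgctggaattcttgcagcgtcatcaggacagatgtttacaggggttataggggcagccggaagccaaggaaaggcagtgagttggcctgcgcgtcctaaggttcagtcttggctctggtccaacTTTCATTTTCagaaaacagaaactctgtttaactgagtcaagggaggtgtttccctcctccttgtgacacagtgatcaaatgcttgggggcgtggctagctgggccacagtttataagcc
Ifit1: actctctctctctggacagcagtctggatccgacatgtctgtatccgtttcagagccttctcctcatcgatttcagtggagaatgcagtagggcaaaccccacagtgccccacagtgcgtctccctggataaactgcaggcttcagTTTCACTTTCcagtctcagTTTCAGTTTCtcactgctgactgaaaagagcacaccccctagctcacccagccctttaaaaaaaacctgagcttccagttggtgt
Irf1: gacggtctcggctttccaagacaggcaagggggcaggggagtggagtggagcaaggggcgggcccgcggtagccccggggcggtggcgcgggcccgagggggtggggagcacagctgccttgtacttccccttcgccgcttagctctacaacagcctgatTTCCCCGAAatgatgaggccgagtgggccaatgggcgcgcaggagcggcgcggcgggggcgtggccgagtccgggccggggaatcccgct
The ISRE match of Oas3 began 75 bases before the start, that of Cxcl10 213 and that of Rsad2 120. Ifit1 held matches at 104 and 85 bases, and the GAS match of Irf1 began at 90.

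Single animals in 3 of the ventilated groups stood far above the rest of their group in most of the interferon-stimulated genes. The mean over the 32 genes lay between 8.00 and 8.25 on the 5 non-ventilated arrays. High stretch hypercapnia replicate 10 reached 9.83 where the other 9 arrays of its group lay between 7.91 and 8.42, and it was the highest array of its group for 31 of 32 genes and the highest of all 35 arrays for 27. Low stretch hypercapnia replicate 1 reached 9.15 against 8.03 to 8.42 on the other 4 arrays, and was highest of its group for 29 genes. Low stretch normocapnia replicate 1 reached 9.52, against 8.87 for replicate 2 and 8.15 to 8.27 for the other 3, and was highest of its group for all 32 genes. Of all 19938 genes, the same 3 arrays were the highest of their groups for 9.25%, 27.6% and 16.5%. In high stretch normocapnia no array stood as far off: the 10 means ran between 8.04 and 8.83, with replicates 5 to 8 at 8.61 to 8.83, and 8 of the 10 lay above the highest non-ventilated mean. These 3 arrays, the ones with a mean above 9, were left out together in a further fit. They were picked by the level of the genes that are then compared, so p-values without them are a description only.

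**Figure D1:**
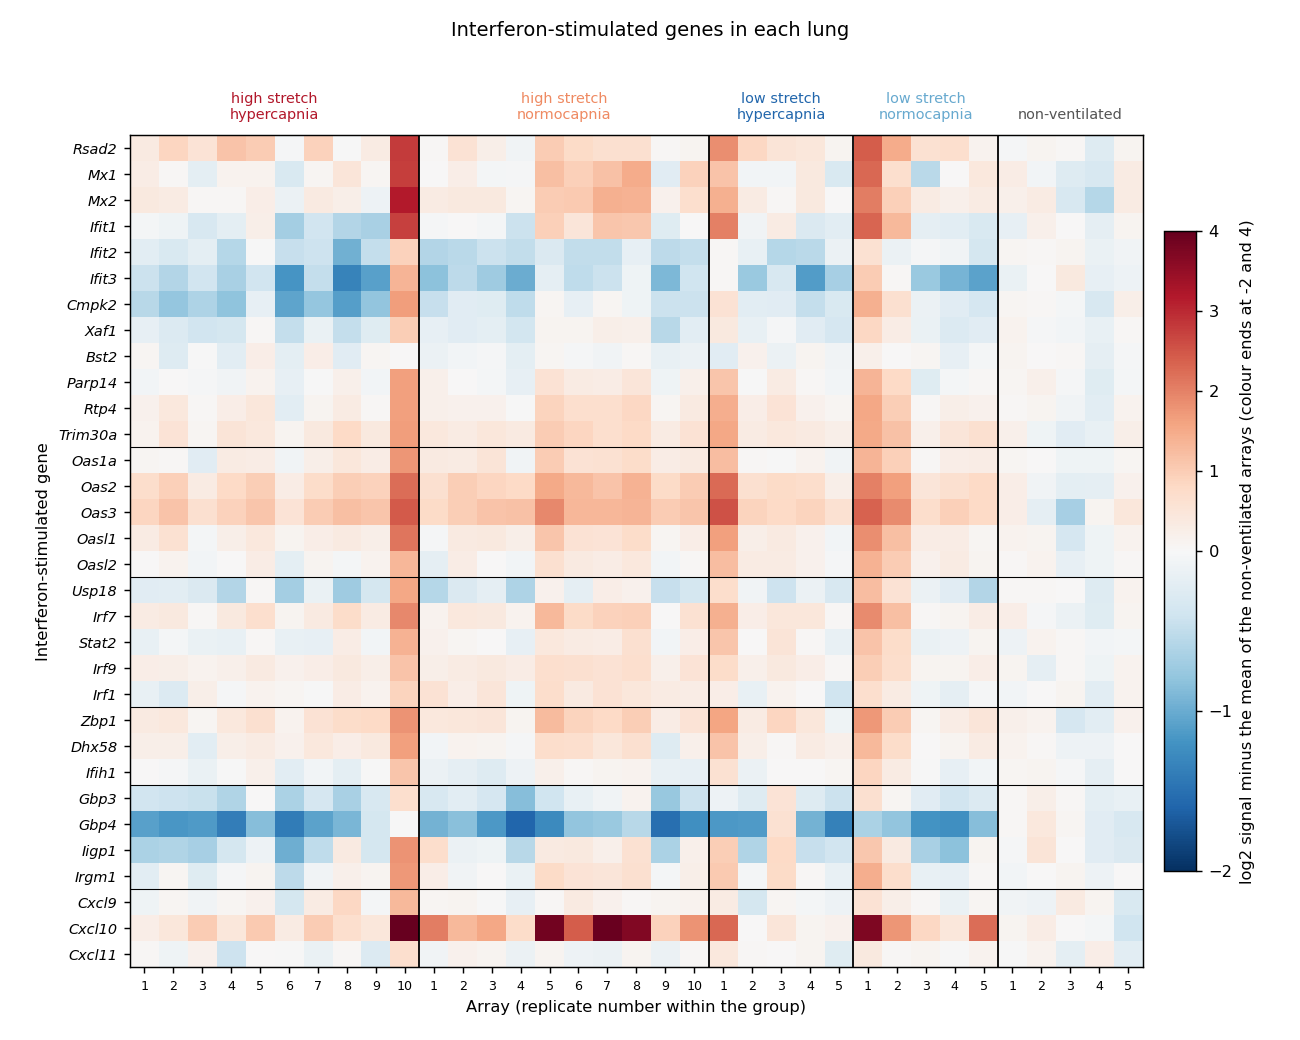
Heat map of 32 interferon-stimulated genes (rows, in blocks by role) on 35 arrays (columns, by group), with colour for the log2 signal minus the mean of the 5 non-ventilated arrays and ending at -2 and 4. Most rows are red in the columns of high stretch hypercapnia 10, low stretch hypercapnia 1 and low stretch normocapnia 1, with Gbp4 an exception. The Oas2 and Oas3 rows are red and the Gbp4 row is blue across most ventilated arrays.

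In high stretch hypercapnia replicate 10, Cxcl10 was 11.76, against a mean of 7.83 ± 0.31 (SD, n = 9) on the other arrays of the group, a 15.2-fold difference. Ifit1, which binds viral RNA, was 11.31 there against 8.27 ± 0.31 (8.27-fold), and the antiviral GTPases Mx2 and Mx1 differed 8.05-fold and 6.41-fold. The nucleotide kinase Cmpk2 differed 5.33-fold and Rsad2 4.63-fold. The median gene lay 1.47 log2 units above the rest of the group, and 28 of 32 lay over 1 unit above. Bst2 (tetherin), which holds budding virus at the cell surface, was the exception, at 9.64 in this animal against 9.62 ± 0.21 in the other 9.

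The 2 low stretch animals showed the same set with smaller differences. Low stretch hypercapnia replicate 1 lay a median of 1.01 above the other 4 arrays of its group, with Cxcl10 4.34-fold, Ifit1 4.24-fold and Oas3 3.39-fold higher. Gbp4, at 8.55 in this animal, and Bst2, at 9.42, were not among the raised genes. Low stretch normocapnia replicate 1 lay a median of 1.16 above the rest, with Cxcl10 5.41-fold, Ifit1 4.52-fold and Mx1 4.45-fold higher. These 3 animals were picked out by the level of these genes, so the differences are given as a description with no test.

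The spread inside each ventilated group was accordingly large for these genes. The median SD of the 32 genes was 0.51 in high stretch hypercapnia, 0.30 in high stretch normocapnia, 0.52 in low stretch hypercapnia, 0.65 in low stretch normocapnia and 0.17 in non-ventilated lungs. Over all 19938 genes it was between 0.12 and 0.16 in every group. The SD lay above the 95th percentile of all genes for 29, 21, 24 and 28 of the 32 genes in the ventilated groups, in that order, and for 2 in non-ventilated lungs. Bst2 did not share this spread, with group SDs of 0.09 to 0.20.

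A further list of interferon-stimulated genes, of which 45 of 56 could be measured, was high in the same animals: 36 were highest of their group in high stretch hypercapnia replicate 10, 33 in low stretch hypercapnia replicate 1 and 43 in low stretch normocapnia replicate 1. Neutrophil markers moved with them in part. Of 12 such markers, 11, 11 and 8 were the highest of the group on these 3 arrays, with medians 0.96, 1.28 and 0.45 above the rest of the group. Markers of lung tissue (9 measured) were highest on these arrays for 1, 0 and 3 genes and endothelial markers (10 measured) for 0, 0 and 0. Plasmacytoid dendritic cell markers (6 measured) were highest for 3, 1 and 2, with medians 0.41, 0.07 and 0.18 above the rest of the group. Their mean was 8.28 on high stretch hypercapnia replicate 10 and 7.58 to 7.90 on non-ventilated arrays. The mean over the neutrophil markers was the highest of the group on each of the 3 high arrays. It was 10.59 on high stretch hypercapnia replicate 10, 10.72 on low stretch hypercapnia replicate 1 and 10.23 on low stretch normocapnia replicate 1. It did not follow the interferon-stimulated genes on every array. High stretch normocapnia replicate 4 had the highest neutrophil mean of its group, 10.48, and the lowest mean over the 32 genes, 8.04. Replicate 5 of that group had the highest mean over the 32 genes, 8.83, and a neutrophil mean of 10.39. The part of neutrophil number in the 3 high animals was not tested, and in whole lung more cells of a type and more RNA per cell cannot be told apart.

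**Figure D2:**
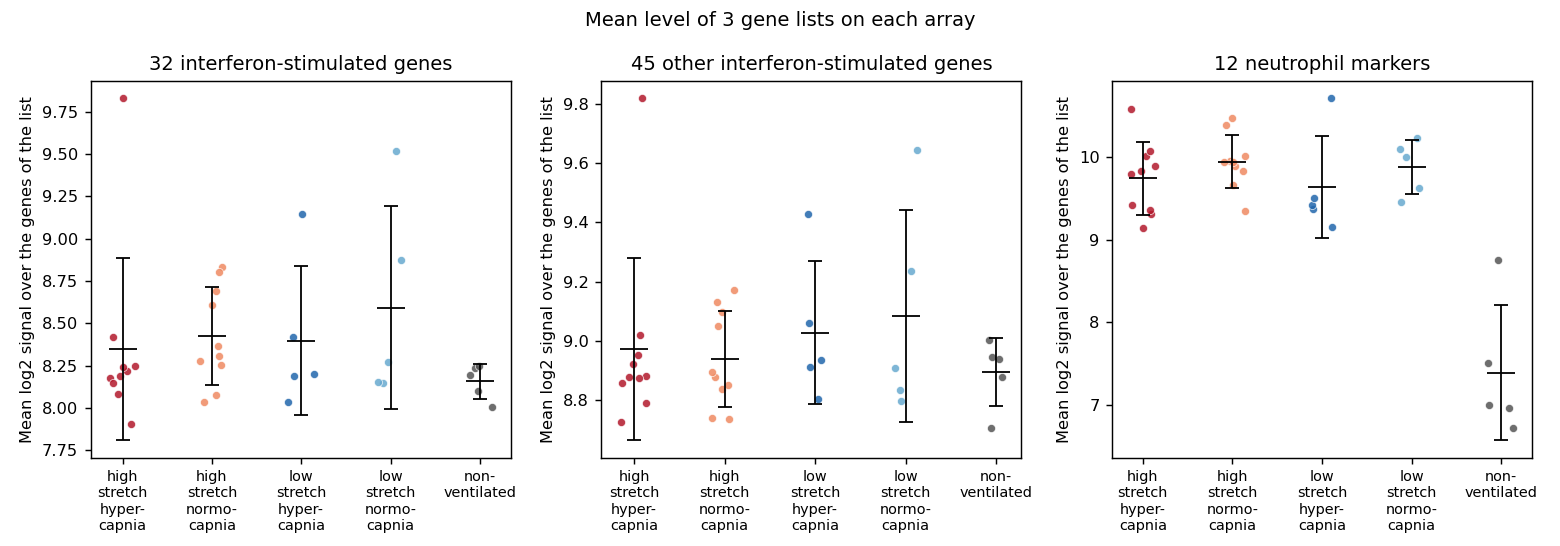
Mean log2 signal over 32 interferon-stimulated genes, 45 other interferon-stimulated genes and 12 neutrophil markers on each array, with 1 point per array and the group mean ± SD as bars. One high stretch hypercapnia array (9.83), 1 low stretch hypercapnia array (9.15) and 1 low stretch normocapnia array (9.52) stand above 9 in the first panel; in the third panel all ventilated arrays lie above all non-ventilated ones.

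Each ventilated group was then compared with non-ventilated lungs over all 19938 genes with limma and Benjamini-Hochberg adjustment, a gene passing at an adjusted p below 0.05. All 4 comparisons use the same 5 non-ventilated arrays, so they are not independent of each other. In high stretch hypercapnia 2 of the 32 genes rose and 1 fell, beside 16.3% of all genes that rose and 17.6% that fell. In high stretch normocapnia 7 rose and 2 fell, beside 17.4% and 18.9% of all genes. In low stretch hypercapnia 2 rose and 1 fell, beside 7.99% and 7.02%, and in low stretch normocapnia 3 rose and 1 fell, beside 6.63% and 5.17%. The low stretch counts of rises are close to these shares. Genes whose arrays all lay above every non-ventilated array numbered 3 in high stretch hypercapnia (7.26% of all genes), 5 in high stretch normocapnia (8.38%), 1 in low stretch hypercapnia (4.96%) and 4 in low stretch normocapnia (4.65%). Those with all arrays below numbered 0 (5.98% of all genes), 2 (7.91%), 0 (3.95%) and 1 (3.54%) in the same order. The median change of the 32 genes was 0.17, 0.26, 0.29 and 0.41 in these comparisons, where the median over all genes was -0.04, -0.03, 0.00 and -0.01. Without the 3 high animals it was 0.05, 0.26, 0.05 and 0.14, and leaving out the high animal of a group alone gave the same medians. The standard errors were wider than usual for this table: their median in the high stretch comparisons was 0.23 for the 32 genes and 0.08 for all genes.

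**Figure D3:**
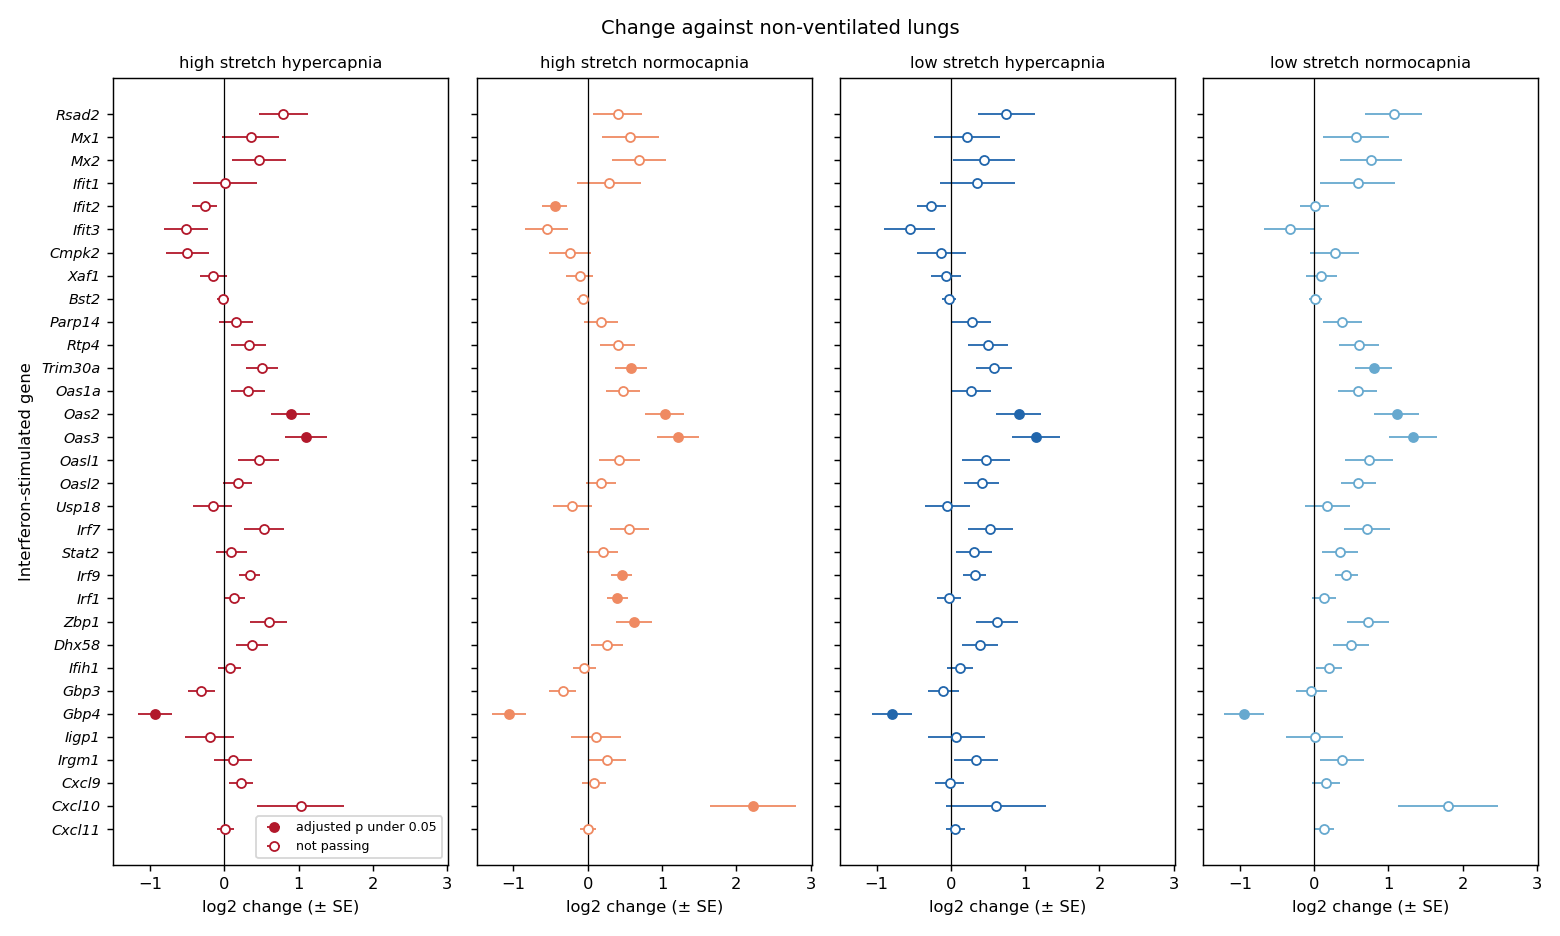
Log2 change ± SE (limma) of 32 interferon-stimulated genes in each ventilated group against non-ventilated lungs, with filled points for an adjusted p below 0.05. Oas2 and Oas3 lie right of 0 and Gbp4 left of 0 with filled points in all 4 panels; Cxcl10 is filled in the high stretch normocapnia panel, and the 4 panels share the 5 non-ventilated arrays.

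The OAS enzymes make the oligoadenylates that switch on RNase L, and 2 of the 5 genes of this family, Oas2 and Oas3, rose in every ventilated group. Oas3 had a lowest, median and highest signal of 7.26, 7.75 and 9.14 in high stretch hypercapnia and 7.46, 7.86 and 8.63 in high stretch normocapnia. It was 9.25, 7.58, 7.49, 7.60 and 7.31 in low stretch hypercapnia, 9.06, 8.58, 7.39, 7.66 and 7.48 in low stretch normocapnia, and 6.97, 6.52, 6.03, 6.81 and 7.15 in non-ventilated lungs. Every ventilated array lay above every non-ventilated one. In limma Oas3 rose by 1.10 ± 0.28 (SE; adjusted p = 0.0020) in high stretch hypercapnia, 1.21 ± 0.28 (adjusted p = 0.000634) in high stretch normocapnia, 1.15 ± 0.32 (adjusted p = 0.0121) in low stretch hypercapnia and 1.34 ± 0.32 (adjusted p = 0.0043) in low stretch normocapnia. In low stretch hypercapnia the change was 0.79 ± 0.29 with replicate 1 alone left out of the limma fit (adjusted p = 0.0802) and 0.79 ± 0.21 with all 3 high animals left out (adjusted p = 0.0102), the same change with a different SE.

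Oas2 was 7.65, 8.21 and 9.58 (lowest, median and highest) in high stretch hypercapnia and 8.00, 8.35 and 8.87 in high stretch normocapnia. It was 9.61, 8.00, 8.12, 8.05 and 7.59 in low stretch hypercapnia, 9.38, 8.98, 7.84, 7.99 and 8.16 in low stretch normocapnia, and 7.63, 7.29, 7.16, 7.18 and 7.52 in non-ventilated lungs. The ventilated groups lay above all non-ventilated arrays except low stretch hypercapnia, which overlapped through replicate 5. Oas2 rose by 0.89 ± 0.26 (limma adjusted p = 0.0072), 1.04 ± 0.26 (adjusted p = 0.0016), 0.91 ± 0.30 (adjusted p = 0.0347) and 1.11 ± 0.30 (adjusted p = 0.0114) in the same order of groups. Without the single highest low stretch animal of its group, the limma value was 0.58 (adjusted p = 0.201) in hypercapnia and 0.88 (adjusted p = 0.0617) in normocapnia, and with all 3 high animals left out these were 0.58 (adjusted p = 0.0431) and 0.88 (adjusted p = 0.0019). The low stretch hypercapnia call of Oas2 was also lost without non-ventilated replicate 2, 3 or 4 (limma adjusted p from 0.0634 to 0.0730). Oas1a, Oasl1 and Oasl2 did not pass in any group; Oas1a, for example, had means of 7.41 ± 0.55, 7.56 ± 0.29, 7.36 ± 0.54 and 7.67 ± 0.55 in the 4 ventilated groups against 7.09 ± 0.08 in non-ventilated lungs (SD).

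**Figure D4:**
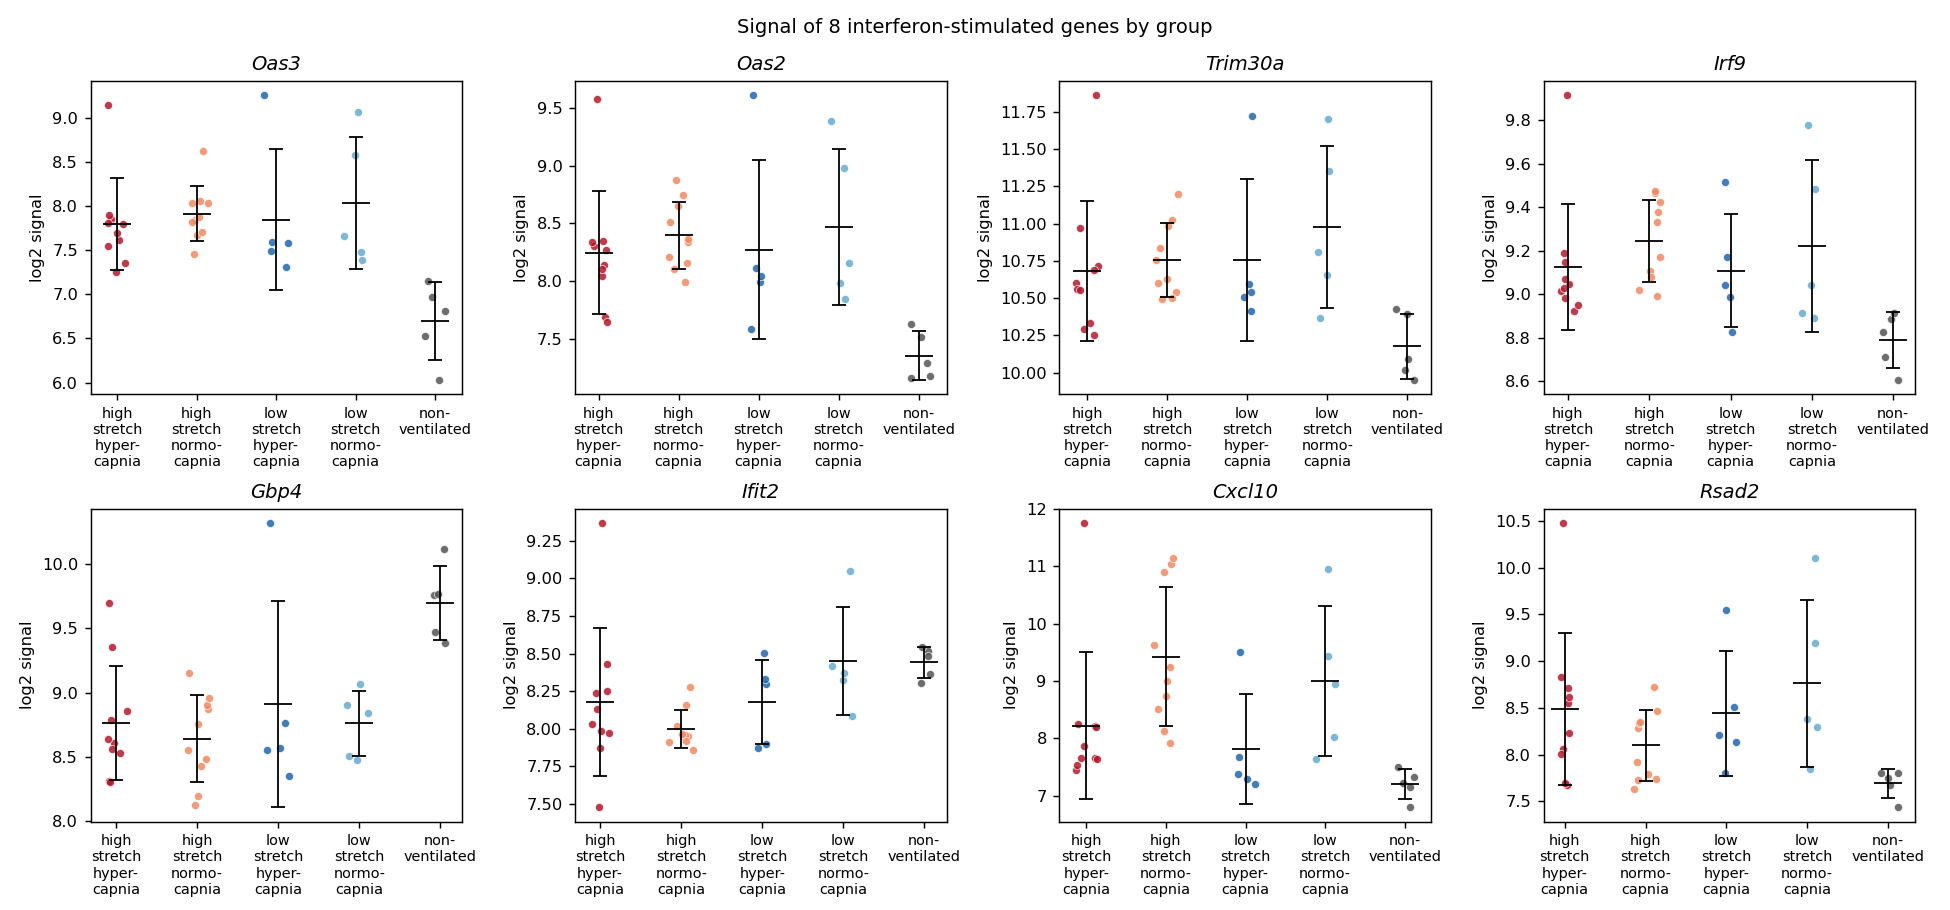
Log2 signal of 8 interferon-stimulated genes, with 1 point per array, the 5 groups along the x axis and the group mean ± SD as bars. Oas3 is above the non-ventilated range on every ventilated array, Gbp4 is below it in both normocapnia groups, and single arrays stand far above their group in most panels.

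Among the effectors, Trim30a, a mouse protein that dampens Toll-like receptor signalling, rose in both normocapnia groups. Its signal was 10.49, 10.69 and 11.20 (lowest, median and highest) in high stretch normocapnia, 11.70, 11.36, 10.36, 10.65 and 10.81 in low stretch normocapnia, and 10.40, 10.09, 9.95, 10.02 and 10.42 in non-ventilated lungs. High stretch normocapnia did not overlap with non-ventilated lungs and low stretch normocapnia did. The limma changes were 0.58 ± 0.21 (adjusted p = 0.0296) and 0.80 ± 0.24 (adjusted p = 0.0266). The hypercapnia groups had 0.51 (limma adjusted p = 0.063) at high and 0.58 (adjusted p = 0.115) at low stretch, and without the 3 high animals 0.38 (limma adjusted p = 0.0280, which passed) and 0.34 (adjusted p = 0.200). Leaving out low stretch normocapnia replicate 1 gave 0.62 (limma adjusted p = 0.123), and leaving out all 3 high animals gave 0.62 (adjusted p = 0.0095). Both calls were lost without non-ventilated replicate 2, 3 or 4, that at high stretch also without its replicate 5 and that at low stretch without its replicate 2 (limma adjusted p from 0.0523 to 0.0814).

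Ifit2, an RNA-binding relative of Ifit1, fell in high stretch normocapnia by 0.45 on the log2 scale (SE 0.17; limma adjusted p = 0.0364). It was 7.86, 7.95 and 8.28 (lowest, median and highest) there, against 8.52, 8.48, 8.55, 8.30 and 8.37 in non-ventilated lungs, with no overlap. The call was lost without non-ventilated replicate 1, 2 or 3 or high stretch normocapnia replicate 1 (limma adjusted p from 0.0532 to 0.0766). The other 3 ventilated groups had -0.27, -0.26 and 0.01 (limma adjusted p = 0.246, 0.452 and 0.990). With high stretch hypercapnia replicate 10 left out, Ifit2, Ifit3, Cmpk2 and Gbp3 were lower in high stretch hypercapnia than in non-ventilated lungs, with log2 changes of -0.40, -0.72, -0.74 and -0.42 (limma adjusted p = 0.0131, 0.0171, 0.0034 and 0.0364). That animal was the highest of its group for each of these 4 genes. It was picked by its mean over the 32 genes, so these changes depend on that choice and are a description. With all 3 high animals left out, 6 of the 32 genes were higher and 5 lower in high stretch hypercapnia than in non-ventilated lungs. In that fit 32.2% of all genes passed in either direction.

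Rsad2 (viperin), whose enzyme makes a nucleotide that stops viral RNA synthesis, did not pass in any group over all arrays. It was 7.67, 8.39 and 10.48 (lowest, median and highest) in high stretch hypercapnia, against 7.67, 7.80, 7.75, 7.44 and 7.81 in non-ventilated lungs, a limma change of 0.79 ± 0.33 (adjusted p = 0.061). Low stretch normocapnia had 10.10, 9.19, 8.29, 8.38 and 7.85, all above the non-ventilated arrays, and a change of 1.07 ± 0.38 (limma adjusted p = 0.0616). In low stretch hypercapnia it was 0.75 (adjusted p = 0.213) and in high stretch normocapnia 0.40 (limma adjusted p = 0.380). Without the 3 high animals Rsad2 passed in high stretch hypercapnia, at 0.57 (limma adjusted p = 0.0296), and was 0.47 (adjusted p = 0.259) in low stretch hypercapnia and 0.73 (adjusted p = 0.0516) in low stretch normocapnia. It also passed in high stretch hypercapnia without replicate 6 or 8 (limma adjusted p = 0.0369 and 0.0384) and in low stretch normocapnia without replicate 3 or 5 (adjusted p = 0.0491 and 0.0285). Mx1, Ifit1 and Bst2 had adjusted p-values from 0.267 to 0.993 in these 4 comparisons.

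Of the 5 signalling factors, Irf9, the DNA-binding part of ISGF3, and Irf1, a factor induced by interferon gamma, rose in high stretch normocapnia. Irf9 was 8.99, 9.25 and 9.48 (lowest, median and highest), above every non-ventilated array (8.89, 8.61, 8.83, 8.71 and 8.91), a change of 0.46 ± 0.14 (limma adjusted p = 0.0073). It had 0.34 (limma adjusted p = 0.0522) in high stretch hypercapnia, where all arrays were also above, and 0.32 (adjusted p = 0.191) and 0.43 (adjusted p = 0.068) in low stretch hypercapnia and normocapnia. Without the 3 high animals Irf9 passed in high stretch hypercapnia, at 0.25 (limma adjusted p = 0.0316), and was 0.22 (adjusted p = 0.229) and 0.29 (adjusted p = 0.0870) at low stretch. Irf1 was 9.67, 10.16 and 10.46 in high stretch normocapnia and 9.70, 9.76, 9.86, 9.54 and 9.89 in non-ventilated lungs, which overlap, with a change of 0.40 ± 0.14 (limma adjusted p = 0.0243). Without non-ventilated replicate 1 or 4 the adjusted p of Irf1 in limma was 0.0512 or 0.0785. Irf1 has 2 probe sets, and the mean of both gave 0.11 (limma adjusted p = 0.315). Irf7, which amplifies interferon alpha production, Stat2, and Usp18, which restrains the receptor, did not pass.

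Of the 3 sensors, Zbp1, a sensor of Z-form nucleic acids, rose in high stretch normocapnia by 0.63 ± 0.25 (limma adjusted p = 0.0437), with signals of 7.21, 7.62 and 8.36 (lowest, median and highest) against 7.32, 7.24, 6.76, 6.89 and 7.29 in non-ventilated lungs. The groups overlap. The call was lost without any 1 of 8 arrays, non-ventilated replicates 2, 3 and 4 and high stretch normocapnia replicates 5, 6, 7, 8 and 10 (limma adjusted p from 0.0504 to 0.116). The other groups had 0.59 (limma adjusted p = 0.0592) in high stretch hypercapnia, 0.62 (adjusted p = 0.156) in low stretch hypercapnia and 0.72 (adjusted p = 0.0987) in low stretch normocapnia. Without the 3 high animals these were 0.46 (limma adjusted p = 0.0331, which passed), 0.38 (adjusted p = 0.273) and 0.47 (adjusted p = 0.160). The RNA sensors Dhx58 and Ifih1 did not pass.

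The GTPases held the one gene that fell in all 4 groups, Gbp4, a guanylate-binding protein induced by interferon gamma. It was 8.31, 8.62 and 9.70 (lowest, median and highest) in high stretch hypercapnia and 8.12, 8.66 and 9.15 in high stretch normocapnia. It was 8.55, 8.57, 10.32, 8.76 and 8.35 in low stretch hypercapnia, 9.06, 8.91, 8.51, 8.48 and 8.84 in low stretch normocapnia, and 9.76, 10.12, 9.77, 9.47 and 9.39 in non-ventilated lungs. All arrays of both normocapnia groups lay below all non-ventilated arrays, and both hypercapnia groups overlapped, low stretch hypercapnia through replicate 3. The limma changes were -0.94 ± 0.23 (adjusted p = 0.0015), -1.06 ± 0.23 (adjusted p = 0.000343), -0.79 ± 0.27 (adjusted p = 0.0389) and -0.94 ± 0.27 (adjusted p = 0.0157). In low stretch hypercapnia the call was lost without replicate 1, 2, 4 or 5 or non-ventilated replicate 1, 2 or 3 (limma adjusted p from 0.0695 to 0.116) and without the 3 high animals (-0.70, adjusted p = 0.0845). In low stretch normocapnia it was lost without non-ventilated replicate 2 (-0.84, limma adjusted p = 0.0575). Gbp4 also occurs on a probe set shared with 5 other Gbp genes, which was not used. Gbp3, Iigp1 and Irgm1, whose products act on vacuoles of intracellular pathogens, did not pass over all arrays.

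Of the CXCR3 ligands, which attract T and NK cells, Cxcl10 passed, in high stretch normocapnia. It was 7.92, 9.12 and 11.14 (lowest, median and highest) there, with replicates 5, 7 and 8 at 10.90 to 11.14, and 7.32, 7.50, 7.22, 7.16 and 6.79 in non-ventilated lungs, which do not overlap. The change was 2.23 ± 0.58, a 4.68-fold rise (limma adjusted p = 0.0024). In low stretch normocapnia it was 10.95, 8.95, 8.02, 7.64 and 9.44, again above every non-ventilated array, with a change of 1.80 ± 0.67 (limma adjusted p = 0.0788). In high stretch hypercapnia it was 7.45, 7.76 and 11.76 (lowest, median and highest), and the change was 1.02 ± 0.58 (limma adjusted p = 0.188). In low stretch hypercapnia it was 9.50, 7.21, 7.67, 7.30 and 7.37, with a change of 0.61 (limma adjusted p = 0.655). Without the 3 high animals the change was 0.63 (limma adjusted p = 0.260) in high stretch hypercapnia, 0.19 (adjusted p = 0.899) in low stretch hypercapnia and 1.31 (adjusted p = 0.0887) in low stretch normocapnia. Cxcl9 and Cxcl11 are among the lower signals of the table, at percentiles 29.5 and 14.9 of the gene means, and no detection calls were available; their largest change against non-ventilated lungs was 0.22.

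Whether carbon dioxide changed these genes was compared within each stretch. No gene of the 32 passed between high stretch hypercapnia and high stretch normocapnia, beside 5.56% of all genes. In limma 2 of the 32 had an unadjusted p under 0.05, beside 3489 of all 19938 genes, which is a larger share. Cxcl10 differed by -1.20 ± 0.48 (limma adjusted p = 0.148), with 7.45, 7.76 and 11.76 (lowest, median and highest) in hypercapnia and 7.92, 9.12 and 11.14 in normocapnia. Irf1 differed by -0.26 ± 0.11 (limma adjusted p = 0.204), followed by Rsad2 at 0.39, Ifit2 at 0.18, Iigp1 at -0.31 and Cmpk2 at -0.26 (adjusted p = 0.518 to 0.662). High stretch hypercapnia replicate 10, at 11.76 for Cxcl10, decided this count. Without it Cxcl10 was -1.60 ± 0.40 (limma adjusted p = 0.0120), the other 9 hypercapnia arrays lying between 7.45 and 8.25, and Irf1 was -0.35 ± 0.10 (adjusted p = 0.0341). This Irf1 value comes from the brighter of its 2 probe sets, and the mean of both was fitted only over all arrays. With the 3 high animals left out, Cmpk2 (-0.50, limma adjusted p = 0.0056) and Mx2 (-0.52, adjusted p = 0.0433) passed too, for 4 genes lower and 0 higher beside 6.09% of all genes in either direction. The arrays left out were picked by their level of these same genes. The changes and p-values without them depend on that choice and are given as a description.

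**Figure D5:**
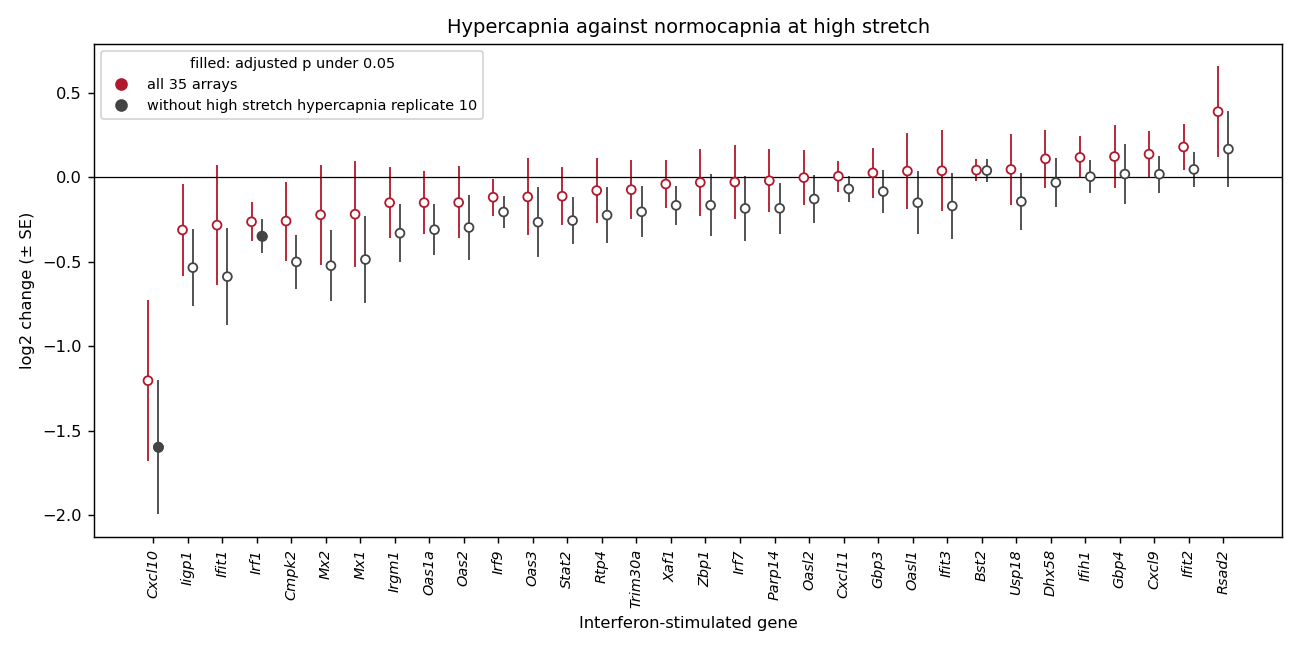
Log2 change ± SE (limma) of 32 interferon-stimulated genes in high stretch hypercapnia against high stretch normocapnia, over all 35 arrays and without high stretch hypercapnia replicate 10, ordered by the first value, with filled points for an adjusted p below 0.05. No point is filled over all arrays; Cxcl10 (-1.60) and Irf1 (-0.35) are filled without that array.

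At low stretch no gene of the 32 passed between hypercapnia and normocapnia, beside 0.115% of all genes. None had an unadjusted p under 0.05 in limma, beside 1839 of all 19938 genes. The median difference was -0.18 over these genes and 0.01 over all genes. The smallest p belonged to Cxcl10 (-1.19 ± 0.67, limma adjusted p = 0.623), Ifit2 (-0.27), Cmpk2 (-0.40), Oas1a (-0.31), Irf1 (-0.16) and Cxcl9 (-0.18), all with adjusted p at or above 0.623. These 10 arrays include 2 of the 3 high animals, and the median was -0.11 without both. Without low stretch hypercapnia replicate 1 alone it was -0.35, and without low stretch normocapnia replicate 1 alone it was 0.03, so its sign depends on single arrays.

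The stretch comparison gave no passing gene at either gas. Between high and low stretch in normocapnia 18.3% of all genes passed and none of the 32. In limma 2 of the 32 had an unadjusted p under 0.05, beside 5688 of all 19938 genes, which is a larger share. Ifit2 had the smallest p, with a change of -0.45 ± 0.17 (limma adjusted p = 0.0591), followed by Oasl2 (-0.42), Rsad2 (-0.67), Irf1 (0.26), Cmpk2 (-0.51) and Gbp3 (-0.30), with limma adjusted p from 0.161 to 0.299. Without the 3 high animals Irf1, read from the brighter of its 2 probe sets, was higher at high stretch by 0.39 ± 0.11 (limma adjusted p = 0.0131). In hypercapnia, 10.1% of all genes passed and none of the 32. None of the 32 had an unadjusted p under 0.05 in limma, beside 4698 of all 19938 genes. The smallest p belonged to Cxcl9 (0.24), Cmpk2 (-0.37), Oasl2 (-0.23), Gbp3 (-0.21), Irf1 (0.16) and Stat2 (-0.22), with adjusted p from 0.397 to 0.574. Without high stretch hypercapnia replicate 10, Cmpk2 was lower at high stretch, with a change of -0.61 (limma adjusted p = 0.0470).

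Whether the CO2 difference depended on stretch was tested as an interaction, which passed in none of the 32 genes and in 0% of all genes (893 genes at an unadjusted p under 0.05 in limma). The smallest p belonged to Ifit2 (0.45 ± 0.24), Rsad2 (0.71 ± 0.46), Cxcl9 (0.32), Ifih1 (0.19), Iigp1 (-0.37) and Oasl1 (0.30), all with a limma adjusted p of 0.997.

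No ligand that drives this programme passed as higher. Of 10 interferon genes measured (of 12 listed), 0 rose in any ventilated group, and Ifnz was lower in high stretch normocapnia, with a change of -0.23 ± 0.06 (limma adjusted p = 0.0034). Ifnb1, the first type I interferon induced in most cells, lay between 3.95 and 5.13 on all 35 arrays. In the high animals it was 4.46 in high stretch hypercapnia replicate 10, 4.87 in low stretch hypercapnia replicate 1 and 4.40 in low stretch normocapnia replicate 1, each within the range of 4.53 to 5.13 in non-ventilated lungs or below it. At such levels a small rise of a transcript made by few cells may not be detectable on these arrays.

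The receptors and Jak-STAT genes (10 of 11 measured) gave small rises: 4 in high stretch hypercapnia (16.3% of all genes rose), 3 in high stretch normocapnia (17.4%), 2 in low stretch hypercapnia (7.99%) and 1 in low stretch normocapnia (6.63%), with 0 lower. Ifngr1, a chain of the interferon gamma receptor, rose in all 4 groups, by 0.28, 0.19, 0.30 and 0.24 (limma adjusted p = 0.000363, 0.0123, 0.0024 and 0.0209). Ifnlr1, the receptor of interferon lambda, rose by 0.28, 0.37 and 0.28 in the first 3 of these groups (limma adjusted p = 0.0037, 0.000137 and 0.0254). Jak2 rose at high stretch by 0.32 in hypercapnia and 0.26 in normocapnia (limma adjusted p = 0.0062 and 0.0221), and Jak1 by 0.13 in high stretch hypercapnia (adjusted p = 0.0305). Ifngr2, the partner chain of Ifngr1, was lower in high stretch hypercapnia than in high stretch normocapnia, with a change of -0.27 ± 0.07 (limma adjusted p = 0.0120), and in normocapnia higher at high than at low stretch by 0.41 ± 0.08 (adjusted p = 0.000427).

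The genes that sense nucleic acids upstream of interferon could all be measured (14 of 14). In each high stretch group 6 were higher and 2 lower, where 16.3% of all genes rose and 17.6% fell in hypercapnia and 17.4% and 18.9% in normocapnia. At low stretch 4 were higher in hypercapnia (7.99% of all genes), and 3 were higher and 1 lower in normocapnia (6.63% and 5.17%). The largest changes were those of Tlr7, an endosomal RNA receptor, at 1.11, 1.08, 0.84 and 1.04 in the 4 groups, and Myd88, its adaptor, at 0.93, 1.13, 0.68 and 0.79; all 8 passed in limma. Sting1, the adaptor for cytosolic DNA, passed in both high stretch groups, with rises of 0.88 ± 0.20 in hypercapnia and 1.15 ± 0.20 in normocapnia (limma adjusted p = 0.000577 and 1.45e-05), and was 0.67 ± 0.20 higher at high than at low stretch in normocapnia (adjusted p = 0.0142). Tbk1, the kinase below these adaptors, rose in all 4 groups by 0.35 to 0.47, and Irf5 at high stretch by 0.55 in hypercapnia and 0.62 in normocapnia. Tlr3 and Mavs, of the double-stranded RNA pathways, were lower in high stretch hypercapnia and normocapnia, Tlr3 with changes of -0.29 and -0.33 and Mavs with -0.29 and -0.35. Ticam1 was higher in high stretch hypercapnia than in high stretch normocapnia by 0.18 ± 0.05 (limma adjusted p = 0.0112), and Irf8 was lower in low stretch normocapnia, with a change of -0.44 (adjusted p = 0.0388).

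Of the 45 other interferon-stimulated genes, 6 rose and 5 fell in each high stretch group, 1 rose in low stretch hypercapnia, and 1 rose and 1 fell in low stretch normocapnia. Over all genes 16.3% rose and 17.6% fell in high stretch hypercapnia and 17.4% and 18.9% in high stretch normocapnia. At low stretch 7.99% rose and 7.02% fell in hypercapnia, and 6.63% and 5.17% in normocapnia. The counts of these 45 genes lie below the background in all 4 groups. Ms4a4c rose in all 4 groups, by 1.26, 1.33, 1.21 and 1.27 (limma adjusted p = 0.0053, 0.0030, 0.0413 and 0.0382). Slfn8 rose at high stretch by 1.02 and 1.15 (limma adjusted p = 0.0185 and 0.0071), with Sp140 at 0.52 in hypercapnia and Slfn5 at 0.59 in normocapnia. Psmb9, an immunoproteasome subunit, fell in 3 groups, with changes of -0.38, -0.56 and -0.34 in high stretch hypercapnia, high stretch normocapnia and low stretch normocapnia (limma adjusted p = 0.0021, 2.12e-05 and 0.0453). Uba7, the enzyme that activates Isg15, and Ube2l6, its partner, were lower in high stretch normocapnia, with changes of -0.37 and -0.42 (limma adjusted p = 5.56e-05 and 0.0019), as was Gbp7 with -0.57 (adjusted p = 0.0125). Uba7, Gbp7 and Tor3a were also lower at high than at low stretch in normocapnia, with changes of -0.29, -0.52 and -0.27 (limma adjusted p = 0.0033, 0.0421 and 0.0393).

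Levels of cell type markers differed between ventilated and non-ventilated lungs over the same arrays. Whether cell numbers or the RNA per cell differed cannot be told apart in whole lung. The marker counts below stand beside the shares of all genes that rose and fell. These were 16.3% and 17.6% in high stretch hypercapnia and 17.4% and 18.9% in high stretch normocapnia. At low stretch they were 7.99% and 7.02% in hypercapnia and 6.63% and 5.17% in normocapnia. The array medians lay between 6.96 and 7.05, and the lung markers Sftpc, Scgb1a1 and Ager lay at 13.94 to 14.10, 13.60 to 13.85 and 12.79 to 13.04 over all 35 arrays. Of the 9 lung tissue markers, 2 fell in each high stretch group. Foxj1 had changes of -0.56 in hypercapnia and -0.41 in normocapnia (limma adjusted p = 2.24e-09 and 7.40e-07). Nkx2-1 had -0.26 and -0.35 (limma adjusted p = 0.000807 and 1.92e-05). Foxj1 was also lower in low stretch normocapnia, at -0.23 (limma adjusted p = 0.0218). Of 12 neutrophil markers 10 rose in each ventilated group, with list means of 9.14 to 10.72 on ventilated and 6.71 to 8.75 on non-ventilated arrays; in high stretch normocapnia Mmp8 rose by 4.15 and Il1r2 by 3.89 (limma). All 7 B cell markers fell in each ventilated group, for example Ms4a1 with a change of -1.02 in high stretch normocapnia, and 7 or 8 of 10 endothelial markers fell, for example Egfl7 with -1.01 there. Of 11 monocyte and macrophage markers, 5 rose and 1 fell in high stretch hypercapnia, 4 rose in high stretch normocapnia, led there by Ccr2 at 1.27, and 1 fell in low stretch hypercapnia; the gene that fell was Cx3cr1 both times. Of 9 T and NK cell markers, 0 rose in any ventilated group. In high stretch hypercapnia 3 fell, in high stretch normocapnia 1, in low stretch hypercapnia 4 and in low stretch normocapnia 3. The NK cell receptor Ncr1 fell in all 4 groups, with changes of -1.34, -0.61, -1.34 and -0.66 in that order. Ncr1 was also lower in high stretch hypercapnia than in high stretch normocapnia, with a change of -0.73 ± 0.14 (limma adjusted p = 0.0012). The part of these shifts in the changes of the interferon-stimulated genes was not tested.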

How the data were processed

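Whole-lung RNA from 35 mice was hybridised to Affymetrix whole-transcript arrays. The deposited table holds log2 signal made by the authors; per the submitters' processing notes, RMA, Affymetrix Expression Console and Partek were used, and versions are not given in the sources used here. Of 35557 probe sets, 21789 had 1 gene symbol in the platform annotation, 1621 had several and 12147 had none. Keeping the brightest of a gene's probe sets (by mean over the arrays) gave 19938 genes. The linear model, with 1 term per group and all 35 arrays, was run in limma 3.58.1 under R 4.3.3, and p-values were adjusted by Benjamini-Hochberg over all genes within each of 9 comparisons; the fit was tested on simulated data. The number of arrays limits the precision. Labels give no batch or scan date, and none was adjusted for. In each comparison the passing genes are named, and where fewer than 6 passed, those of smallest p up to 6; of the other lists, up to 4 passing genes with the largest changes are named. The members and lists were chosen with earlier results of these data known. Alternatives were fits on the compared groups alone, a replicate block, array centring, a second quantile normalization, trend and robust eBayes, genes above the median level, the mean of all probe sets, and each array left out; leaving out 3 arrays was added after the data were seen.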

Additional observations from a re-analysis of the deposited data

Results flagged for a closer look

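Each of the 32 genes was checked in each of the 5 groups for an array that stood apart, meaning that the gap to its nearest neighbour was larger than Dixon's critical value for the group's range. Chance gives about 1 such array in 20 groups; here 42 of 160 had one, and in all 42 the array was high. Of these, 28 were high stretch hypercapnia replicate 10, 12 were low stretch hypercapnia replicate 1, 1 was low stretch hypercapnia replicate 3 and 1 was high stretch normocapnia replicate 5. The genes share these arrays, so the 42 are not independent.

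High stretch hypercapnia replicate 10 stood apart with a mean over the 32 genes of 9.83. Its values in log2 signal were Rsad2 at 10.48, Mx1 at 8.79, Mx2 at 8.84, Ifit1 at 11.31, Ifit2 at 9.37, Ifit3 at 10.35, Oas1a at 8.85, Oas2 at 9.58, Oas3 at 9.14, Oasl1 at 9.29, Oasl2 at 10.73, Usp18 at 10.07, Irf7 at 10.18 and Cmpk2 at 9.56. It also stood apart with Xaf1 at 9.19, Zbp1 at 8.91, Dhx58 at 8.77, Ifih1 at 10.38, Stat2 at 10.74, Irf9 at 9.91, Gbp3 at 9.81, Iigp1 at 10.90, Irgm1 at 10.62, Cxcl10 at 11.76, Irf1 at 10.65, Parp14 at 11.10, Rtp4 at 10.87 and Trim30a at 11.86.

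Low stretch hypercapnia replicate 1 stood apart with Mx2 at 7.10, Ifit1 at 10.59, Oas1a at 8.32, Oas2 at 9.61, Oas3 at 9.25, Oasl1 at 8.78, Oasl2 at 10.65, Cmpk2 at 8.45, Dhx58 at 8.29, Ifih1 at 9.89, Cxcl10 at 9.50 and Trim30a at 11.72. Low stretch hypercapnia replicate 3 stood apart with Gbp4 at 10.32, above every non-ventilated array, and high stretch normocapnia replicate 5 with Oas3 at 8.63. Low stretch normocapnia replicate 1, the highest of its group for all 32 genes, did not meet the criterion for any gene.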

How the results depend on the processing

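The counts of passing interferon-stimulated genes depended on the arrays and genes that entered the fit. With only the compared groups in the limma fit, 0 passed in low stretch hypercapnia and 15 in high stretch normocapnia against non-ventilated lungs, and 1 between high and low stretch in normocapnia. Testing only genes above the median level, which kept 27 of the 32, gave 7 in low stretch normocapnia and 7 in high stretch hypercapnia against non-ventilated lungs and 1 between high and low stretch in normocapnia. Shares of all genes were not computed for these settings, for the replicate block or for most fits with 1 array left out. Those counts therefore have no background beside them and are not a result about these genes alone. Leaving out the 3 high animals, chosen after the data were seen, gave 11 in high stretch hypercapnia (32.2% of all genes) and 15 in high stretch normocapnia (36.9%) against non-ventilated lungs, 1 between high and low stretch in normocapnia and 4 between hypercapnia and normocapnia at high stretch. With 1 array left out at a time, the count against non-ventilated lungs ran between 3 and 7 in high stretch hypercapnia, 6 and 9 in high stretch normocapnia, 0 and 3 in low stretch hypercapnia and 2 and 7 in low stretch normocapnia. The 0 came from leaving out low stretch hypercapnia replicate 1, a fit in which 10.9% of all genes passed. The count ran between 0 and 2 for CO2 at high stretch, 0 and 1 for stretch in either gas, and was 0 for CO2 at low stretch and for the interaction. No passing gene changed direction under any alternative run. Over arrays with the same replicate number, 17 of 55 pairs had r over 0.1 (median 0.02, from -0.34 to 0.38). This cannot settle whether the numbers pair the mice, and both high low stretch animals are replicate 1. With a replicate block the counts against non-ventilated lungs were 3, 6, 3 and 5 in high stretch hypercapnia, high stretch normocapnia, low stretch hypercapnia and low stretch normocapnia, and 0 elsewhere. Zbp1, Trim30a and Irf1 no longer passed in high stretch normocapnia, where the median change was 0.12. Irf9 then passed in low stretch normocapnia.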
